A study of Mus musculus with 8 samples.

Results

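Genes of lysosomal enzymes, lysosomal membrane proteins, the lysosomal proton pump and their regulation were compared between 2 kinds of macrophage of the mouse heart. The set held 34 genes of the 24516 in the count table, chosen by symbol, and all 34 were found. The libraries came from sorted cells of C57BL/6 hearts at postnatal day 28. The label EcTM marks 4 libraries of macrophages derived from the endocardium, the inner lining of the heart, and the label non-EcTM marks 4 libraries of heart macrophages without that origin. All 8 libraries carry the same genotype, Nfatc1Cre/+ with a Rosa26Tomato reporter/+, so the groups differ in the sorted cells and not in the inherited alleles. Cre at Nfatc1, a gene of the endocardium, switches the Tomato reporter on for good in the cells that use it and in their progeny. The origin of a cell is thus read from the history of 1 driver gene, and the labels used here do not give the sorting gate. EcTM libraries carry the names E591, E592, E604 and E606, and each was paired with the non-EcTM library of its number, N591, N592, N604 or N606. Pairs are named below by their EcTM library. The labels do not say what a number stands for or whether libraries came from separate animals. The p-values therefore measure the spread between these libraries, which may be technical. Only the pair E592 is set apart by sex in the counts, as given below, so its cells came from other animals than those of the remaining pairs.

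Lysosomes are acidic organelles in which proteases, glycosidases and lipases break down material taken up from outside or delivered by autophagy. A proton pump, the V-ATPase, acidifies them, membrane glycoproteins shield their wall, and transporters and channels release cholesterol, ions and breakdown products. The transcription factor TFEB switches many of these genes on through a short promoter element with a CACGTG core. Resident macrophages are rich in lysosomes, since they clear dying cells and cell debris, and several lysosomal proteins serve as macrophage markers.

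The 8 libraries held 2152425 to 2576407 counts in EcTM and 2281657 to 2937464 in non-EcTM. Levels are given as CPM, counts scaled with TMM factors to libraries of equal size, and a value "± SD" is over n = 4 libraries. The summed CPM of 12 macrophage markers was 29493 to 30299 in EcTM and 27497 to 30221 in non-EcTM, and 1 of the 12, Itgam, was at 0 in all 8 libraries. Sums of markers of other cells are given for comparison between libraries and not with the sum of the macrophage markers. The 12 endothelial and endocardial markers summed to 42.5 to 273 CPM in EcTM and 83.0 to 749 CPM in non-EcTM, with Pecam1, Tek, Npr3 and Nfatc1 at 0 in all 8. N591 was the library at 749 CPM. It also had the highest sums of 12 cardiomyocyte, 8 fibroblast and 7 mural markers, at 191, 188 and 198 CPM, where the other libraries had 89.5 to 152, 22.3 to 126 and 41.1 to 141 CPM. Markers of neutrophils, lymphocytes and dendritic cells summed to at most 7.26, 6.71 and 23.2 CPM in any library. At 0 in all 8 libraries were 3 of the cardiomyocyte, 2 of the fibroblast and 3 of the mural markers. The same held for 2 markers each of neutrophils, lymphocytes and dendritic cells. A 0 is not read as absence here, so these sums do not measure the purity of the sort. The part of transcripts of other cells in the results below was not tested. The pairs also differed in sex, since E592 and N592 held 260 and 307 counts of Ddx3y, a gene of the Y chromosome, where the remaining 6 had 1 to 7. In RNA of sorted cell pools, fewer cells of a type and less RNA per cell cannot be told apart.

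The promoters of the set were read first, since TFEB targets share a sequence. RefSeq promoter windows (GRCm38.p6, the assembly that mm10 names, 250 bases before to 50 bases after each start) were matched for 29 of the 34 genes. The 6 letters CACGTG were present for 11 of these 29 genes (37.9%), beside 2187 of 27025 genes (8.09%) in the whole window table. The longer TCACGTGA, which contains CACGTG, was present for 5 of 29 (17.2%), beside 304 of 27025 (1.12%). Both are palindromes, so a match on 1 strand is a match on the other. The median GC content was 56.3% in the windows of the set and 52.7% in all windows, and no test was made of these shares. A match is a string of letters and not a measured binding site. The stretches around TCACGTGA in Atp6v0d1, Ctsa, Ctsd, Gla and Mcoln1 are shown because these genes carry the longer element, with capitals for CACGTG or TCACGTGA, each 5′ to 3′ along the gene.
Atp6v0d1 (chr8:105566035-105566094, - strand): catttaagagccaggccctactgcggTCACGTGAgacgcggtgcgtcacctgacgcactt
Ctsa (chr2:164833734-164833793, + strand): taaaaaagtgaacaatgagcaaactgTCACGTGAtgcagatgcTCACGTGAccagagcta
Ctsd (chr7:142387893-142387952, - strand): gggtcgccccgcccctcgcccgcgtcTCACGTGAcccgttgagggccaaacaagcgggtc
Gla (chrX:134601200-134601255, - strand): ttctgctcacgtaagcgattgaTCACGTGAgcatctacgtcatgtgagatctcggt
Mcoln1 (chr8:3500447-3500506, + strand): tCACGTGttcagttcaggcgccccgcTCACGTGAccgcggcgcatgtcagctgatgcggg

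The start used for Ctsa, and that for Laptm5 below, lies inside the annotated span of the gene. Of the 2 copies of TCACGTGA in Ctsa the first begins 13 bases before that start and the second after it. The other window of Ctsa, at the start of its span, has neither CACGTG nor the longer element. The longer element begins 4 bases before the start in Atp6v0d1, 46 bases before it in Mcoln1, 99 in Ctsd and 228 in Gla. Lamp1 has 4 matches of CACGTG within 61 bases before its start and none of the longer element. Laptm5 and Mpeg1, the 2 genes with the smallest p between the groups, had no match in their windows. The last 100 bases before their starts are shown for comparison.
Laptm5 (chr4:130913216-130913315, + strand): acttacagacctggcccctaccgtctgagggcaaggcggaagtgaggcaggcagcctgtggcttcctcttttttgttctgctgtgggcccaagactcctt
Mpeg1 (chr19:12460670-12460769, + strand): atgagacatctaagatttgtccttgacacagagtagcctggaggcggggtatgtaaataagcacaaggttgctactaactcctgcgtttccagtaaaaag

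A total of 28 of the 34 genes passed the filter on low counts and were tested in a paired edgeR model of all 7667 genes that passed. None of the 28 passed an adjusted p (Benjamini-Hochberg, edgeR quasi-likelihood test) of 0.05, and 5 had an unadjusted p under 0.05, 4 of them higher in EcTM. Among all tested genes the model called 1 (0.0130%) and gave 414 (5.40%) an unadjusted p under 0.05. Paired DESeq2 and paired limma-voom each called the same 2 genes of the set, Mpeg1 and Laptm5, both higher in EcTM. DESeq2 called 24 of the 3097 genes to which it gave an adjusted p (0.775%), 19 of them higher in EcTM (0.613%), and 21 genes of the set had such a value. The limma-voom model called 19 of 7667 genes (0.248%), 15 of them higher (0.196%). Without the pairing edgeR called 0 of 7667 genes (0%) and 0 of the set, of which 3 had an unadjusted p under 0.05.

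Mpeg1 encodes perforin-2, a pore-forming protein of macrophages that attacks engulfed bacteria. Its EcTM libraries stood at 1231, 1258, 1068 and 1345 CPM, in the order of the numbers, and its non-EcTM libraries at 939, 944, 1030 and 1120 CPM. EcTM was the higher library in 4 of 4 pairs, by little in pair E604, and the groups overlapped because E604 lay below N606. The fold change was 1.22 with a 95% interval of 1.10 to 1.35, for this gene alone and not corrected for the number of genes. Its log2 fold change was 0.28 ± 0.07 (SE), with an adjusted p of 0.413 in paired edgeR, 0.00931 in paired DESeq2 and 0.0100 in paired limma-voom. Mpeg1 lies on chromosome 19 from 12460770 to 12465285 (GRCm38.p6).

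Laptm5 encodes a lysosomal membrane protein of blood cells that sends receptors to degradation. The EcTM libraries stood at 1812, 1877, 1869 and 2002 CPM, and the non-EcTM libraries at 1632, 1682, 1660 and 1656 CPM. No EcTM library was as low as a non-EcTM one, a pattern shared by 1.29% of all tested genes and 2.38% of the 715 genes whose log2 CPM averaged 8 or more. The fold change was small, 1.14 with an interval of 1.05 to 1.24, and the log2 fold change was 0.19 ± 0.06. The adjusted p was 0.608 in paired edgeR, 0.0230 in paired DESeq2 and 0.0380 in paired limma-voom. Laptm5 lies on chromosome 4 from 130912890 to 130936148.

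The DESeq2 calls of both genes did not hold in every fit with a pair left out. Left out were the pairs E591, E592, E604 and E606 in turn, a check chosen after the data were seen. For Mpeg1 the adjusted p was then 0.470, 0.135, 1.81e-05 and 0.99997, and for Laptm5 it was 0.370, 0.0591, 0.0332 and 0.99997. DESeq2 called 0, 15, 25 and 4 genes in all in these fits. The log2 fold changes moved less, from 0.24 to 0.36 for Mpeg1 and from 0.16 to 0.21 for Laptm5. Without E606 that of Mpeg1 was 0.286, beside 0.285 in the full fit, and its SE was 0.093, beside 0.067. Each of these fits holds fewer libraries and its own adjustment over all genes. A lost call therefore does not show that the pair left out had carried it.

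**Figure D1:**
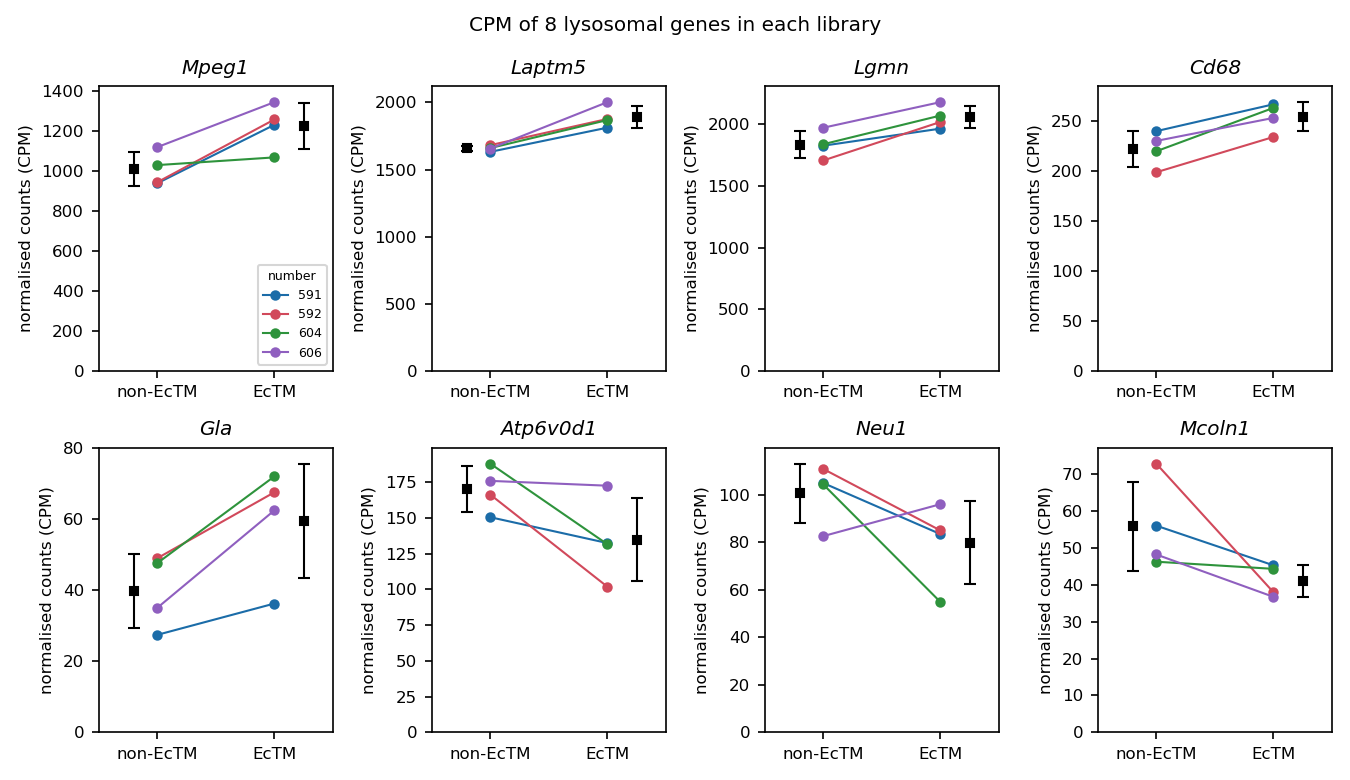
Normalised counts (CPM) of 8 lysosomal genes in each library, with lines joining each pair and means ± SD (n = 4) as black squares. Mpeg1, Laptm5, Lgmn, Cd68 and Gla rise from non-EcTM to EcTM along every line and Atp6v0d1 and Mcoln1 fall along every line, while the line of E606 and N606 goes the other way in Neu1.

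Among the proteases 8 of 9 genes were tested, 5 with a log2 fold change above 0, and 0 passed in any paired fit. Legumain (Lgmn), an asparaginyl endopeptidase that also matures other lysosomal proteases, came nearest. Its EcTM libraries stood at 1964, 2018, 2070 and 2178 CPM and its non-EcTM libraries at 1825, 1706, 1837 and 1971 CPM. All 4 pairs were higher in EcTM, though E591 lay below N606. The fold change was 1.12 with an interval of 1.04 to 1.21, and the adjusted p was 0.751 in edgeR and 0.0564 in DESeq2. Ctsz, a carboxypeptidase, and Tpp1, a tripeptidyl peptidase, were also higher in 4 of 4 pairs, with fold changes of 1.09 each, intervals of 0.974 to 1.22 and 0.943 to 1.26, and unadjusted p-values of 0.126 and 0.233.

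The cathepsins with the deepest counts differed little between the groups. Ctsb, a cysteine protease and the gene with the most counts in the set, had 4814 ± 445 CPM (EcTM) against 4737 ± 285 CPM (non-EcTM), with an interval of 0.953 to 1.08. The aspartic protease gene Ctsd stood at 623 ± 87.2 and 648 ± 65.9 CPM, with a fold change of 0.958 and an interval of 0.857 to 1.07. Ctsl, another cysteine protease, stood at 261 ± 30.1 and 277 ± 12.6 CPM, with 0.938 and 0.807 to 1.09.

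Ctsh and Ctsa varied widely between pairs. Ctsh, an aminopeptidase, had 10.5 to 28.6 CPM over the 8 libraries, and its pair log2 ratios ran from -1.20 to 0.82. Ctsa encodes a carboxypeptidase that also protects the enzymes of Glb1 and Neu1 from degradation. Its EcTM libraries ran from 6.70 to 42.6 CPM and its non-EcTM libraries from 7.94 to 15.3 CPM, a fold change of 1.63 with an interval of 0.843 to 3.16. Its span overlaps Pltp on the opposite strand, a gene with 15051 counts over the 8 libraries, and the sources used here do not give the strand setting of the counting. The same holds for Ctsb and Fdft1 (455 counts), Ctsz and Nelfcd (1596), Hexa and Tmem202 (48), Npc1 and 3110002H16Rik (870) and Scarb2 and Mir6415 (10). Ctss, the elastin-degrading cathepsin of antigen-presenting cells, was at 0 in all 8 libraries.

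**Figure D2:**
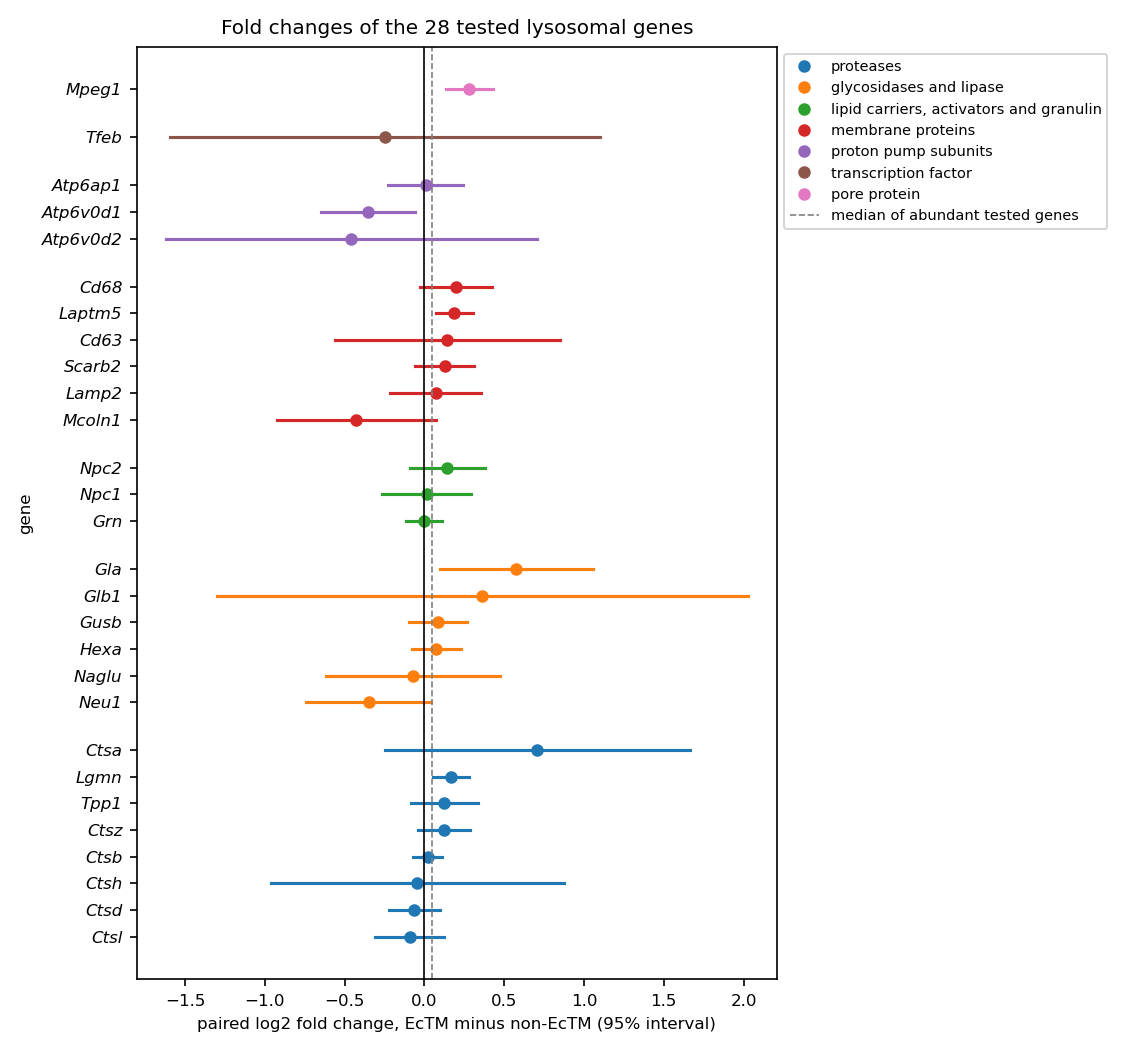
Paired log2 fold changes (EcTM minus non-EcTM, edgeR) of the 28 tested genes with 95% intervals for each gene alone, coloured by role. The dashed line marks 0.05, the median of the 715 tested genes whose log2 CPM averaged 8 or more. The intervals of Mpeg1, Laptm5, Lgmn and Gla lie above 0 and that of Atp6v0d1 below it, before correction for the number of genes.

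Of 8 genes, 7 of glycosidases and 1 of a lipase, 6 were tested and 0 passed in any paired fit. Gla encodes alpha-galactosidase A, which removes terminal galactose from glycolipids. EcTM libraries had 36.2, 67.5, 71.9 and 62.4 CPM of Gla, and non-EcTM libraries 27.4, 48.9, 47.5 and 35.0 CPM. All 4 pairs were higher in EcTM, while the levels of the groups overlapped, with E591 and N591 each lowest in its group. The fold change of 1.49, with an interval of 1.07 to 2.08, was the largest of the 5 genes with an unadjusted p under 0.05, and its adjusted p was 0.871 in edgeR and 0.374 in DESeq2.

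Neu1 encodes the sialidase that trims sialic acid from glycoproteins. EcTM libraries had 83.4, 84.9, 54.8 and 96.0 CPM of Neu1, and non-EcTM libraries 105, 111, 104 and 82.5 CPM. EcTM was lower in pairs E591, E592 and E604 and higher in E606, and the groups overlapped. The fold change was 0.786 with an interval of 0.599 to 1.03 and an unadjusted p of 0.0781.

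Hexa, a subunit of the hexosaminidase that degrades gangliosides, and Gusb, the beta-glucuronidase, were well counted and close to equal. Hexa had 854 ± 46.5 CPM (EcTM) against 815 ± 91.9 CPM (non-EcTM), and Gusb 459.5 ± 33.7 against 433 ± 5.36 CPM. Their intervals were 0.946 to 1.17 and 0.935 to 1.20. Naglu, an enzyme of heparan sulfate breakdown, had a fold change of 0.953 and went up in 2 pairs and down in 2. Glb1, the beta-galactosidase, had 2.97 to 8.04 CPM and an interval of 0.407 to 4.07, and it overlaps Tmppe on the same strand, a gene with 1025 counts.

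Gaa, the glucosidase that degrades glycogen, had 0 to 13 counts in a library and was not tested. Lipa, the acid lipase that frees cholesterol from its esters, was at 0 in all 8 libraries.

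The tested genes of proteins that carry or free lipids, and Grn, showed no difference in RNA that the data could place. Npc1 and Npc2 encode the pair of proteins that hand cholesterol out of the lysosome. Npc1 had 183 ± 5.65 CPM (EcTM) against 183 ± 36.3 CPM (non-EcTM), and Npc2 356 ± 76.3 against 318 ± 30.9 CPM. Their fold changes were 1.01 (interval 0.833 to 1.23) and 1.10 (0.938 to 1.30), and each was higher in EcTM in 2 of 4 pairs. Grn, which encodes progranulin, a secreted and lysosomal growth factor-like protein, stood at 2328 ± 217 and 2335 ± 265 CPM, with an interval of 0.923 to 1.08. Psap, the precursor of the saposins that help enzymes reach sphingolipids, had 0 to 11 counts in a library and was not tested.

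Of 7 genes of membrane proteins 6 were tested, and 5 had a log2 fold change above 0. Apart from Laptm5, none passed in any paired fit. Cd68, a heavily glycosylated protein used as a macrophage marker, had 266, 234, 263 and 253 CPM in the EcTM libraries and 239, 198, 219 and 230 CPM in the others. EcTM was higher in 4 of 4 pairs, with a fold change of 1.15 and an interval of 0.980 to 1.34, and the groups overlapped only in that E592 lay below N591. Mcoln1 encodes a lysosomal calcium channel whose opening activates TFEB. Its EcTM libraries had 45.3, 38.0, 44.3 and 36.7 CPM, and its non-EcTM libraries 56.0, 72.8, 46.2 and 48.2 CPM. No EcTM library was as high as a non-EcTM one, as in 1.41% of all tested genes, with a fold change of 0.744, an interval of 0.527 to 1.05 and an adjusted p of 0.931 in edgeR and 0.607 in DESeq2.

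Scarb2, a membrane protein that carries glucocerebrosidase to the lysosome, had 481 ± 12.9 CPM (EcTM) against 443 ± 52.7 CPM (non-EcTM). Lamp2, a major glycoprotein of the lysosomal wall, had 162, 158, 167 and 259 CPM in the EcTM libraries and 179, 166, 181 and 171 CPM in the others. It was lower in EcTM in 3 pairs, and its fold change of 1.05 came with E606, far above the other EcTM libraries. Without the pair E606 the log2 fold change of Lamp2 turned from 0.07 to -0.12. Cd63, a tetraspanin of late endosomes, had 16.7 to 34.4 CPM and an interval of 0.679 to 1.80. Lamp1, the partner of Lamp2, was at 0 in all 8 libraries.

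The proton pump was covered by 4 genes. Atp6v0d1 encodes the d subunit that links the membrane and cytosolic sectors in most cells, and Atp6v0d2 encodes its isoform of osteoclasts and some macrophages. EcTM libraries had 132, 102, 132 and 173 CPM of Atp6v0d1, and non-EcTM libraries 151, 166, 188 and 176 CPM. The gene was lower in EcTM in 4 of 4 pairs, with E606 inside the range of the other group and almost level with N606. The fold change was 0.782 with an interval of 0.639 to 0.958 and an adjusted p of 0.871 in edgeR and 0.418 in DESeq2. Atp6v0d2 had 4.91 to 23.1 CPM, a fold change of 0.728 and an interval of 0.326 to 1.63, too wide to set beside that of Atp6v0d1. Atp6ap1, an accessory subunit, stood at 254 ± 41.9 and 251 ± 23.6 CPM (interval 0.854 to 1.18). Atp6v1h, a regulatory subunit, had 0 to 4 counts in a library and was not tested.

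Tfeb itself was sparsely counted. Its level ran from 2.76 to 14.8 CPM in EcTM libraries and from 7.44 to 11.9 CPM in the others, with a fold change of 0.844 and an interval of 0.332 to 2.15. The 5 genes with TCACGTGA had log2 fold changes of 0.71 (Ctsa), 0.58 (Gla), -0.06 (Ctsd), -0.35 (Atp6v0d1) and -0.43 (Mcoln1). These estimates lay on both sides of 0, but the intervals of Ctsa, Ctsd and Mcoln1 include no change. None of the 5 passed in any paired fit, and a shared direction was not tested.

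Seen as a whole, the 28 tested genes had a median log2 fold change of 0.07, beside -0.01 over all 7667 tested genes, with 18 above 0 and 10 below. Abundant genes in general leaned toward EcTM: of the 715 genes whose log2 CPM averaged 8 or more, 507 (70.9%) had a log2 fold change above 0 and their median was 0.05. Of the 13 genes of the set at that level, 10 (76.9%) were above 0 and their median was 0.12. The level of 8 was set with the results known, and these counts are a description. All 4 pairs were higher in EcTM for 7 of the 28 genes, where all tested genes gave 7.24% and the abundant ones 17.6%, and 5 of the 7 were abundant genes. All 4 were lower for 2 of 28, where all tested genes gave 6.93%.

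The pairs were not alike. The median log2 ratio of the 28 genes was 0.02 in pair E591, 0.02 in E592, 0.01 in E604 and 0.17 in E606, with 15, 15, 17 and 21 genes above 0, while the median of all tested genes was between -0.00 and 0.01 in each. Summed over the 34 genes, counts made up 1.65%, 1.61%, 1.86% and 1.84% of the EcTM libraries and 1.64%, 1.59%, 1.77% and 1.75% of the non-EcTM libraries. The share was higher in EcTM in 4 of 4 pairs by a mean log2 ratio of 0.04, or 0.08 with TMM scaling (0.10 without Ctsb, a sum added after the data were seen). The summed macrophage markers, which include Cd68, were also higher in EcTM in each pair, at 29901, 30299, 29493 and 29764 CPM against 28869, 30221, 28467 and 27497 CPM, and both sums differed most in pair E606. The part of this movement in the sum of the set was not tested. The lowest share in the pairs E604 and E606, 1.75%, was above the highest in E591 and E592, 1.65%.

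**Figure D3:**
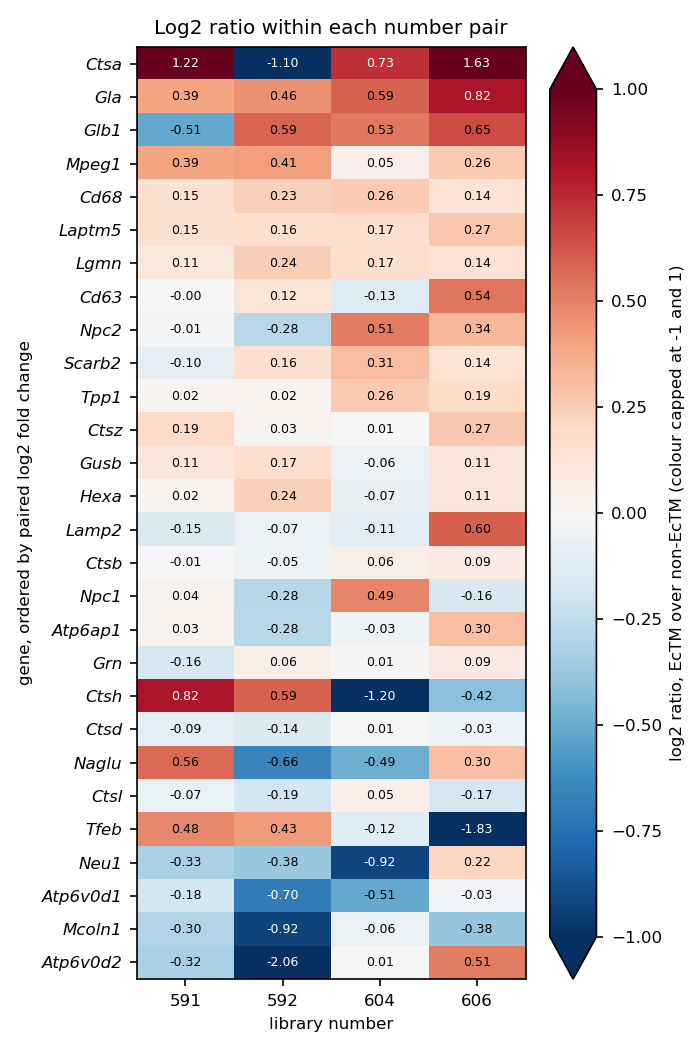
Log2 ratio of EcTM over non-EcTM within each library number for the 28 tested genes, ordered by the paired log2 fold change. Mpeg1, Cd68, Laptm5, Lgmn, Gla, Tpp1 and Ctsz are above 0 in every column, Atp6v0d1 and Mcoln1 below 0 in every column, and sparsely counted genes such as Ctsa, Ctsh, Tfeb and Atp6v0d2 swing in both directions.

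Differences between the 4 numbers were tested in the same paired model, over both groups. In edgeR 233 of 7667 genes (3.04%) differed between numbers at an adjusted p under 0.05, and 0 of the 28 did, with 4 at an unadjusted p under 0.05 (11.2% of all tested genes). The DESeq2 likelihood ratio test called 3 of the set, Ctsb, Ctsd and Grn, beside 442 of the 8441 genes with an adjusted p (5.24%). Each of the 28 had such a value. Ctsb, Ctsd and Grn were deeply counted, with 93399, 12488 and 45422 counts over all libraries. A share among genes of like depth was not taken. The limma-voom model called Ctsb and Grn, beside 299 of 7667 (3.90%). Without the pair E592, which differed in sex, edgeR called 146 genes between the 3 remaining numbers. Without the pairs E591, E604 and E606 in turn it called 148, 179 and 148. The part of sex in these differences was not tested. The labels give nothing else on a number, so animal, litter and day cannot be told apart.

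For Ctsb the mean of the 2 libraries was 4405, 4561, 5194 and 4943 CPM in the pairs E591, E592, E604 and E606. Both libraries of E604 and E606 lay above those of E591 and E592, and the adjusted p was 0.0779 in edgeR and 0.0193 in DESeq2. Ctsd followed the same order of low and high numbers, at 563, 576, 703 and 700 CPM, with an adjusted p of 0.155 in edgeR and 0.00933 in DESeq2. Tpp1 stood at 252, 266, 321 and 335 CPM, and its adjusted p was 0.311 in edgeR and 0.112 in DESeq2. Grn had another order, 2365, 2112, 2631 and 2218 CPM, with E604 and N604 each highest in its group, and an adjusted p of 0.0808 in edgeR and 0.00582 in DESeq2.

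**Figure D4:**
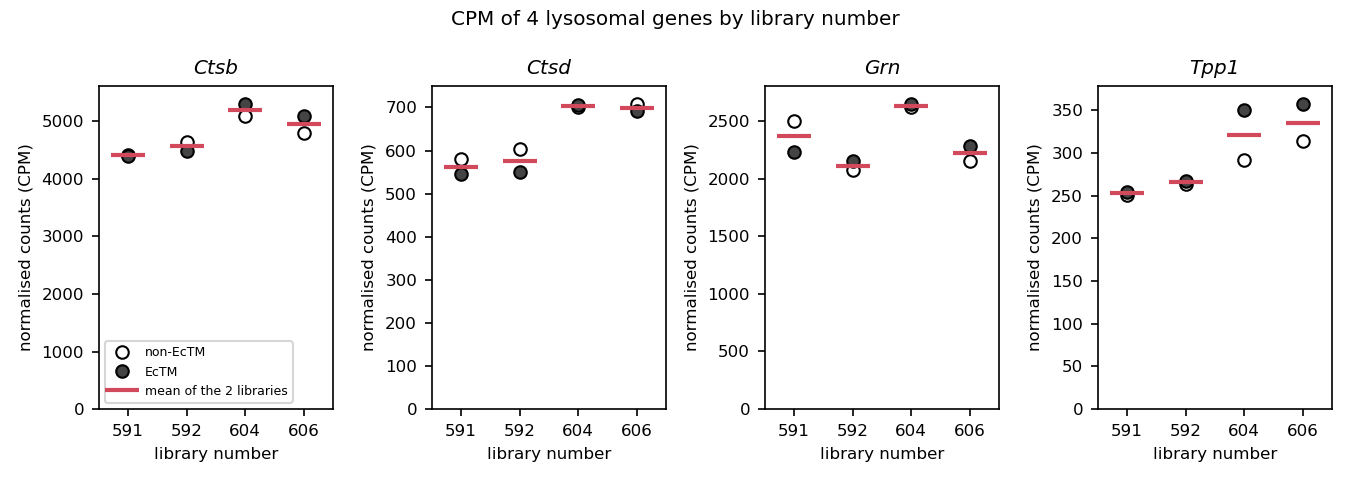
Normalised counts (CPM) of Ctsb, Ctsd, Grn and Tpp1 by library number, with open points for non-EcTM, filled points for EcTM and red bars for the mean of the 2 libraries. Ctsb, Ctsd and Tpp1 are higher in the pairs E604 and E606 than in E591 and E592 in both groups, and Grn is highest in E604.

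The 6 genes left untested, Ctss, Lamp1, Lipa, Gaa, Psap and Atp6v1h, all have at least 2 curated RefSeq transcripts. The 17 genes of the set with 1 curated transcript had a median total of 5759 counts over 8 libraries and none was at 0, while the 17 with more had a median of 328 and 3 were at 0. Over all genes 42.5% were at 0 with a median total of 5 counts for 1 curated transcript, and 39.6% with a median of 6 for more. Counts over all genes were mostly at or near 0, so these values cannot show whether well counted genes have such a gap. That was not tested. Atp6v0d2, with 1 curated transcript, had only 245 counts. Some genes with more than 1 transcript were deeply counted, as Lgmn with 2, Mpeg1 with 2 and Gusb with 4 were. A count of 0 allows a level of up to 3 counts, or 1.02 to 1.39 CPM by library total, a limit of counting error only. Over all genes 10197 (41.6%) were at 0 in all 8 libraries. The counting program is not given in the sources used here, so the 0 of Ctss, Lamp1 and Lipa is reported as listed in the table and not as absence from the cells. Levels are for the same reason compared between groups and not between genes.

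Other genes of the lysosome, in lists set apart from the 34, were counted the same way. Among 133 such genes found there, 94 were tested, and 0 passed in either direction in edgeR, DESeq2 or limma-voom, beside the 0.0130% of all genes in edgeR. In edgeR 3 genes were higher and 1 was lower at an unadjusted p under 0.05. Their median log2 fold change was -0.02, with 42 above 0. By list the medians were -0.02 for 30 other hydrolases, -0.05 for 11 other proton pump subunits, -0.02 for 21 other membrane and transport proteins, -0.02 for 18 genes of lysosome biogenesis and trafficking, and -0.11 for 14 regulators of TFEB and nutrient sensing.

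Slc15a3, a peptide and histidine transporter, had a log2 fold change of 0.25 ± 0.11, and Vps33a, a part of the complexes that tether lysosomes for fusion, had 0.32 ± 0.13, each higher in 4 of 4 pairs. Igf2r, the large receptor that sorts enzymes tagged with mannose 6-phosphate, had -1.51 ± 0.58, from 4.97 ± 1.18 CPM (EcTM) and 16.9 ± 13.2 CPM (non-EcTM). N591, the library with the most endothelial marker counts, was highest for Igf2r at 36.1 CPM, and the other non-EcTM libraries had 5.94 to 13.5 CPM. The pump subunit genes Atp6v1c1, Atp6v1g1 and Atp6ap2 were higher in EcTM in 4 of 4 pairs with log2 fold changes of 0.35, 0.41 and 0.22, opposite to Atp6v0d1, and Atp6v0e had -0.37. These 4 had unadjusted p-values (edgeR) of 0.0651, 0.172, 0.209 and 0.129, the smallest among the 11 tested subunits of their list. Of those 11, 5 had a log2 fold change above 0. Over all tested genes 7.24% were higher in EcTM in 4 of 4 pairs. Among the regulators Tfec had -0.48 ± 0.40 and Lamtor2 -0.28 ± 0.27.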

How the data were processed

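Total RNA of sorted macrophages was made into stranded total RNA libraries with a kit for picogram inputs, per the labels' protocols. The submitters' processing notes name bcl2fastq 2.17, TopHat, DESeq2, R 3.2 and mm10. The authors deposited raw counts of 24516 genes in 8 libraries, and a set of deposited log2 values under a CPM header. Over the 14319 genes with a count, those log2 values lay within 0.00881 of a DESeq2 regularised log transformation with number and group in its design. Results here come from the counts, with no rows left out of the library totals.

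The filter was edgeR's filterByExpr (default settings, by group), which kept 7667 genes. The model held library number and group, fitted with the quasi-likelihood test of edgeR 4.0.16 (TMM) in R 4.3.3 and adjusted by Benjamini-Hochberg over all tested genes at 0.05. The SE of a log2 fold change was its size divided by the square root of F, and 95% intervals used the test's degrees of freedom. DESeq2 1.42.0 (threshold 0.05 in its independent filter) and limma 3.58.1 were run beside it. The pairing was checked in the counts. Deviations from the group means correlated at 0.12 to 0.19 within the 4 same-number pairs and at -0.13 to 0.05 in the 12 others. Log2 CPM for pair ratios used a prior count of 2. The fits were tested on simulated data. Genes were matched by Entrez number to RefSeq (34 of 34). The genes of the set and all lists were chosen with earlier results of these data known. Values in every library are given for genes called by a paired fit, the 8 with the smallest unadjusted p and those whose groups do not overlap, and up to 4 others per list of other lysosomal genes could be named, 1 of which is not reported here. Lamp2, and the genes shown by number, were chosen for display after their values were seen. Figures were drawn with matplotlib 3.10.9. Alternatives were no replicate block, other scalings, filters and tools, and each pair left out.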

Additional observations from a re-analysis of the deposited data

Results flagged for a closer look

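In groups of 4 libraries, 56 sets of values (28 genes in 2 groups) were examined for a single library far from the other 3. Chance flags about 1 in 20 such groups, and 1 was found. Lamp2 stood at 259 CPM in E606, where the other EcTM libraries had 158 to 167 CPM, a gap of 0.907 of the whole range.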

How the results depend on the processing

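The fit without the replicate block, in which the pairing by number is dropped, called 0 genes in all and 0 of the set, where the paired edgeR fit called 1 and 0, and it turned 2 of the 28 directions, Ctsh to 0.015 and Npc1 to -0.0035. With no filter on low counts edgeR called 10 genes in all and 350 between numbers, where it was 233 with the filter. DESeq2 with the replicate block called 24 genes in all and 2 of the set, and between numbers 442 and 3. The limma-voom fit called 19 and 2, and between numbers 2 of the set. With a pair left out edgeR called 1 to 2 genes in all and 0 of the set, and DESeq2, without E591, E592, E604 and E606 in turn, called 0, 15, 25 and 4 in all and 0, 0, 2 and 0 of the set. Between numbers edgeR then called 146 to 179. The median log2 fold change of the set ran from 0.07 to 0.12 over its 11 alternatives and no other lysosomal gene was called in any. Of 306 log2 fold changes under these alternatives, 283 kept direction and call, 19 turned direction and 4 passed the threshold, those of Mpeg1 and Laptm5 in DESeq2 and limma-voom. All 19 were in 10 genes whose change did not pass: Grn was 0.00038 with DESeq2 size factors in edgeR, 0.0022 in DESeq2 and 0.00076 in limma-voom, and Ctsh was 0.017 and Npc1 -0.0097 in limma-voom. With a pair left out Ctsb ran from -0.0064 to 0.047, Ctsh from -0.36 to 0.35, Naglu from -0.28 to 0.13, Grn from -0.036 to 0.053, Npc1 from -0.14 to 0.12, Lamp2 from -0.12 to 0.15, Cd63 from -0.0060 to 0.23, Atp6v0d2 from -0.85 to 0.088, Atp6ap1 from -0.10 to 0.11 and Tfeb from -0.53 to 0.28. The cause of these shifts was not tested. Genes under about 10 CPM, such as Tfeb and Glb1, had intervals that allow more than a doubling or a halving.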
